A study of Mus musculus with 8 samples.

Results

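The genes examined here encode the contractile filaments of smooth muscle and the proteins that hold or regulate them: Acta2, Tagln, Tagln2, Tpm1, Tpm2, Cald1, Cnn2, Myl9, Mylk and Des. Every probe that carried one of these 10 symbols in the array table was read separately, out of 25697 probes with 18138 symbols in all. Of the 10 genes, 8 had a probe and together they had 16, of which 14 were detected on at least 1 array and tested. Detection means a detection p-value under 0.01, that is, a signal above nearly all negative control beads, and 11 of the 16 probes reached it on all 8 arrays. No probe used here carried the symbol Tagln2 or Myl9, or a synonym of either, so neither gene was analysed.

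The cells were primary mouse aortic smooth muscle cells grown out of explants of several aortas, so the samples do not stand for single animals. All of them were held in low glucose medium with charcoal-treated serum and transfected at 5 nM with RNAiMAX, a lipid reagent. The control group (n = 3 samples) received a scrambled oligonucleotide and the moR-21 group (n = 3 samples) a mimetic of moR-21, and RNA was taken at 48 h. For sample 1 of the control group and sample 3 of the moR-21 group a pair of arrays, A and B, was run, and their normalised values were averaged, so that 8 arrays gave 6 samples. A microRNA-offset RNA such as moR-21 is a short RNA cut from the stretch of a microRNA precursor that lies next to the mature microRNA.

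In smooth muscle, thin filaments of alpha actin slide along myosin thick filaments. Contraction starts when calcium and calmodulin activate myosin light chain kinase, which phosphorylates the regulatory light chain of myosin. Tropomyosin, caldesmon and calponin lie on the thin filament and tune its use by myosin, and desmin filaments tie the contractile units to each other and to the cell surface. Cultured aortic smooth muscle cells are known to lose part of this contractile programme and to divide and lay down matrix instead, which is called the synthetic state. Serum response factor, with its partner myocardin, binds CArG boxes in many contractile promoters, and TEAD factors bind MCAT elements.

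The sequences below show where moR-21 comes from and are given 5′ to 3′ from RefSeq (GRCm38.p6). The noncoding Mir21a precursor lies on the minus strand of chromosome 11, and the first line is the part of it before mature miR-21a-5p (chr11:86584142-86584158, 17 bases), the stretch beside the microRNA. The second line is miR-21a-5p itself (chr11:86584120-86584141, 22 bases), with its seed, bases 2 to 8, in capitals. The exact ends of the transfected mimetic were not analysed here.
precursor bases before miR-21a-5p: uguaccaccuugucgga
miR-21a-5p: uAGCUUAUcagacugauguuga

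Short stretches of promoter are shown next for Acta2, Tpm1, Mylk and Cnn2. At the brightest probe, Acta2, Tpm1 and Mylk had the largest upward changes among the genes detected in both groups. The Cnn2 window holds a complete CArG box. RefSeq windows from 250 bases before to 50 bases after a transcript start were found for 9 of the 10 genes (10 windows, Tagln without one). The start of a window need not be the outermost one of the gene. It lies 212 bases inside the full span of Acta2, 459 bases inside that of Tpm1 and 39751 bases inside that of Mylk, and at the first base of Cnn2, so positions are counted from the start of the window's transcript. Each stretch is written in the direction of transcription, with the motif in capitals, and MCAT was searched as CATTCC or, on the other strand, GGAATG. The CArG box (CC, a run of A and T, then GG) was searched as complete or with at most 1 base off, and reads alike on both strands. None of the printed motifs overlaps another. All motifs found in these 4 windows are shown.
Acta2, CArG with 1 base off, 84 bases before the start, chr19:34255438-34255467, minus strand: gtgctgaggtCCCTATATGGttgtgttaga
Acta2, CArG with 1 base off, 34 bases before the start, chr19:34255388-34255417, minus strand: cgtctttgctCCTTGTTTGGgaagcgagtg
Acta2, MCAT, 146 bases before the start, chr19:34255504-34255529, minus strand: gcagaacagaGGAATGcagtggaaga
Tpm1, CArG with 1 base off, 221 bases before the start, chr9:67049415-67049444, minus strand: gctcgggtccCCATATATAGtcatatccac
Tpm1, CArG with 1 base off, 80 bases before the start, chr9:67049274-67049303, minus strand: acaagcttttCCAAAAAAGTattggctgtc
Tpm1, MCAT, 56 bases before the start, chr9:67049254-67049279, minus strand: gctgtcctaaGGAATGcggtcgcccc
Mylk, MCAT, 158 bases before the start, chr16:34784782-34784807, plus strand: cagttcagaaCATTCCctggtacgtg
Cnn2, complete CArG, 56 bases before the start, chr10:79988534-79988563, plus strand: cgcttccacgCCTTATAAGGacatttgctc

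A complete CArG box was found in 2 of the 10 windows, those of Cnn2 and Myl9, against 1.63% of all 32851 promoter windows. With 1 base off allowed, 5 of the 10 windows had one (Acta2, Cald1, Cnn2, Myl9 and Tpm1), against 21.1% of all windows. MCAT was found in 5 of the 10 windows (Acta2, Cald1, Mylk, Tagln2 and Tpm1), against 14.7% of all windows. These are matches of letters in a short window, and binding was not measured.

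On the arrays, Acta2 rose after the moR-21 mimetic at all 4 of its probes, by 1.32-fold at the brightest and by 1.56-fold to 1.76-fold at the others. Tpm1 lay higher by 1.28-fold, Mylk by 1.18-fold at its brightest probe, and Des lay lower by 1.2996-fold, while Tpm2 and Cald1 had values near those of the control. Of the 14 tested probes, 4 were called higher, all of Acta2, and 0 lower, where a call needs an adjusted p under 0.002 and more than a 1.3-fold difference in the limma fit over all 11651 detected probes. In that fit 3.12% of all probes were called higher and 3.85% lower. With no fold cutoff, at an adjusted p under 0.05, 9 of the 14 probes were higher and 1 was lower (all probes 17.9% and 16%), and 4 passed in neither direction. One of the 9 is the Tagln probe, which entered the test only through its moR-21 arrays and so had to be higher. Of the 13 probes detected in both groups, 8 were higher and 1 lower, among them a Cnn2 and a Mylk probe close to the threshold. The samples of the 2 groups did not overlap at 9 of the 14 probes, 8 of them higher (Tagln included) and 1 lower, where 45.0% of all tested probes showed no overlap. The labels do not say that the samples came from separate cultures or animals, so the p-values measure only the spread between these samples.

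**Figure D1:**
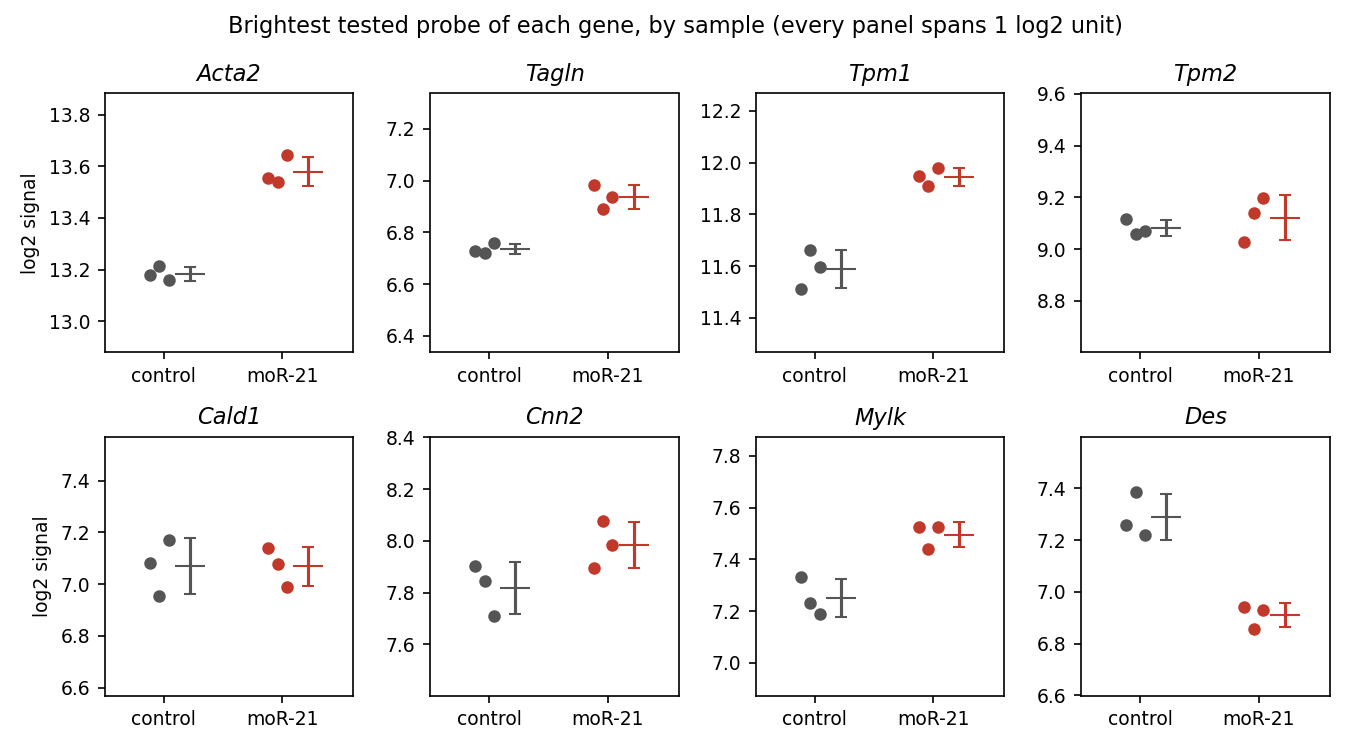
Log2 normalised signal of the brightest tested probe of each gene in every sample (points, 3 control in grey and 3 moR-21 in red), with the mean and SD beside them. Every panel spans 1 log2 unit. The groups are apart, with moR-21 higher, for Acta2, Tagln, Tpm1 and Mylk, apart with moR-21 lower for Des, and overlap for Tpm2, Cald1 and Cnn2.

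Acta2, smooth muscle alpha actin, the main actin of the contractile thin filament, lies on chromosome 19 (GRCm38.p6, 34240336 to 34255585). At its brightest probe, ILMN_2693895, the log2 signal was 13.18, 13.21 and 13.16 in control samples 1 to 3. In moR-21 samples 1 to 3 it was 13.56, 13.54 and 13.64. All 3 moR-21 samples thus lay above every control, and the range within each group was small beside the gap. The change was 0.40 on the log2 scale (95% CI 0.29 to 0.50, SE 0.047, limma adjusted p = 2.14e-05), or 1.32-fold (1.23 to 1.41). That is close to the fold cutoff, and without moR-21 sample 3 the change of 0.36 was below it. With normexp background correction the change was also 0.40 but its adjusted p of 0.00318 missed the cutoff.

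The dimmer Acta2 probes changed more. ILMN_2923445 read 10.58, 10.50 and 10.56 in the controls and 11.34, 11.21 and 11.27 in the moR-21 samples, a rise of 0.73 (SE 0.049, limma adjusted p = 8.58e-08). ILMN_2710354 read 9.70, 9.60 and 9.81 against 10.32, 10.27 and 10.45, a rise of 0.64 (SE 0.061, limma adjusted p = 2.30e-06). At both, the lowest moR-21 sample was well above the highest control. ILMN_2710353, for which the table gives the symbol but no gene definition, read 9.24, 9.11 and 9.23 against 10.11, 9.95 and 9.96, a rise of 0.81 (SE 0.056, limma adjusted p = 1.00e-07). The size of the Acta2 change therefore depended on the probe. In a limma fit of each probe's log2 value minus that of the brightest Acta2 probe in the same sample, the changes of these 3 probes exceeded it by 0.33, 0.25 and 0.42 (adjusted p = 5.09e-06, 5.51e-04 and 6.37e-08). The noise of that brightest probe enters every difference, and the fit treats it as better known than these samples allow. The p-values of this fit, here and below, are therefore likely too small and its CIs too narrow. All 4 rises held the same direction under every alternative run.

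**Figure D2:**
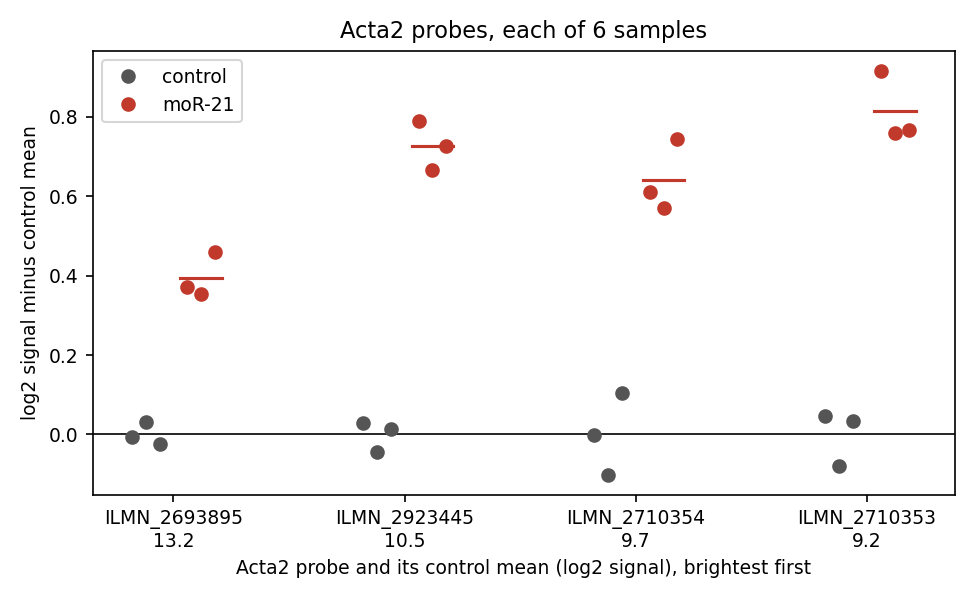
Log2 signal of the 4 Acta2 probes in each sample minus the probe's control mean, ordered from the brightest probe (control mean 13.2) to the dimmest (9.2). Grey points are the 3 controls, red points the 3 moR-21 samples, and red bars their means, which lie at 0.40, 0.73, 0.64 and 0.81.

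In a bulk RNA sample, fewer cells of a type and less RNA per cell cannot be told apart. The markers that define the cells were therefore read too, but they cannot separate these cases. Of 7 smooth muscle markers, 4 were detected on at least 1 array (Acta2, Tagln, Smtn and Lmod1), and single arrays detected 2 to 4. Lmod1 was detected on 3 of the 8 arrays and Tagln on no control array. Myh11, Cnn1 and Myocd, which mark the mature contractile cell, were detected on none of the 8 arrays. A GEO label calls the cells AoECs although the cell type label says smooth muscle cells, and 7 of 8 endothelial markers were not detected, Vwf being the exception. The summed level of the smooth muscle markers, most of it Acta2, ran from 10104 to 10466 in the controls and from 12888 to 13724 in the moR-21 samples. That sum mostly repeats the rise of Acta2. At the brightest probe Smtn had a change of −0.05 and Lmod1 of 0.05 (limma adjusted p = 0.626 and 0.449). Fibroblast markers were lower in sum. Of 5, 4 were detected, Col14a1 on 1 of the 8 arrays alone, and Dpt was not detected. Their summed level ran from 13897 to 14465 in the controls and from 11309 to 12543 in the moR-21 samples. Lum, a matrix proteoglycan, fell by 0.56 and was called lower, and Dcn (−0.22), Pdgfra (−0.17) and Col14a1 (−0.04) were not called. Of 3 mesothelial markers on the array 2 were detected, Upk3b and Krt19, and Msln was not. The summed level of the 3 was 864 to 877 in the controls and 495 to 509 in the moR-21 samples. Most of that fall was Upk3b, which fell by 1.24 and was called. Krt19 had a change of −0.13 with overlapping groups (limma adjusted p = 0.115). The part of these other markers in the values of the contractile genes was not tested. Macrophage markers were detected for 1 of 5 genes and striated muscle markers for 0 of 5. Their summed levels, between 506 and 522 and between 482 and 496, are therefore mostly or wholly background signal.

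Among the proteins that bind the actin filament, Tagln (SM22, transgelin, an actin-bundling protein that marks early smooth muscle; chromosome 9, 45929628 to 45936058) was at the edge of detection. Its single probe read 6.73, 6.72 and 6.76 in the controls and 6.98, 6.89 and 6.94 in the moR-21 samples. It was detected on 0 of 4 control arrays and on 4 of 4 moR-21 arrays. Because the control signal was not above background, the change is a bound, and because the probe was tested only through its moR-21 arrays, its test (limma adjusted p = 3.67e-03) is no support for a rise. Measured against the lowest signal that counted as detected, the bound was 1.08-fold. It rests on the same detection in the moR-21 arrays alone, so it is no support for a rise either.

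Tpm1 encodes tropomyosin 1, which runs along the actin filament (chromosome 9, 67022590 to 67049672). Its single probe read 11.51, 11.66 and 11.60 in the controls and 11.95, 11.91 and 11.98 in the moR-21 samples. The groups did not overlap, and the change was 0.36 (95% CI 0.25 to 0.47, SE 0.050, limma adjusted p = 8.77e-05), or 1.28-fold. Tpm1 thus passed the p cutoff and fell short of the fold cutoff, which lies at 0.38 on the log2 scale. It was called higher when all 8 arrays entered the fit singly, with the repeats tied (0.379) or not (0.385), and without control sample 2 (0.393). The difference between its change and that of the brightest Acta2 probe was −0.04 (95% CI −0.17 to 0.09, limma adjusted p = 0.570), an interval that leaves room for a change smaller or larger than that of Acta2. Against each of the other 3 Acta2 probes Tpm1 changed less, by −0.28 to −0.46.

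Tpm2, another tropomyosin of smooth muscle (chromosome 4, 43513726 to 43523583), had 3 probes. The one that was detected read 9.12, 9.06 and 9.07 in the controls and 9.03, 9.14 and 9.20 in the moR-21 samples. The groups overlapped, and the change of 0.04 did not pass the test (95% CI −0.07 to 0.15, limma adjusted p = 0.610). The other 2 probes were detected on 0 of 8 arrays and were not tested. Its change differed from that of the brightest Acta2 probe by −0.36 (limma adjusted p = 1.14e-06). The change of Tpm2 was not tested directly against that of Tpm1, but their 95% CIs (−0.07 to 0.15 and 0.25 to 0.47) did not meet.

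Cald1 (caldesmon, which binds actin, tropomyosin and myosin and inhibits the motor; chromosome 6, 34598495 to 34775469) had 2 tested probes. The brighter read 7.08, 6.96 and 7.17 in the controls and 7.14, 7.08 and 6.99 in the moR-21 samples, and the dimmer was detected on 2 of 4 arrays in each group. Both overlapped between groups. Their changes were 0.00 and −0.06 (limma adjusted p = 0.994 and 0.424), and the 95% CI of the brighter ran from −0.13 to 0.13, an interval that ends below the change of Acta2.

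Cnn2 (calponin 2, the calponin of many non-muscle as well as smooth muscle cells; chromosome 10, 79988600 to 79995400) read 7.90, 7.85 and 7.71 in the controls and 7.89, 8.08 and 7.98 in the moR-21 samples at its brighter probe. The lowest moR-21 sample lay below the highest control. The change was 0.16 (SE 0.060, limma adjusted p = 0.0491). It rested on which array of the repeated samples was used, being 0.04 with array A alone (adjusted p = 0.751) and 0.29 with array B alone (adjusted p = 0.00728), and it missed 0.05 with normexp (adjusted p = 0.101), median scaling (0.108) and cyclic loess (0.0660). Its repeat arrays differed more widely than the samples of a group did, at 8.04 and 7.77 for control sample 1 and at 7.76 and 8.21 for moR-21 sample 3. The dimmer Cnn2 probe had a change of −0.03 (limma adjusted p = 0.701), so that the 2 probes of the gene did not give the same picture.

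Mylk encodes myosin light chain kinase, the calcium-activated switch of contraction (chromosome 16, 34745199 to 35002436). Its brighter probe read 7.33, 7.23 and 7.19 in the controls and 7.52, 7.44 and 7.52 in the moR-21 samples, without overlap. The change was 0.24 (SE 0.051, limma adjusted p = 1.99e-03), under the fold cutoff. The dimmer probe read 7.10, 7.17 and 7.07 against 7.20, 7.29 and 7.24, a change of 0.13 (SE 0.049, limma adjusted p = 0.0481) that missed 0.05 with median scaling (adjusted p = 0.0799), cyclic loess (0.0502) and array B alone (0.167). Both probes thus pointed the same way by less than the cutoff. With normexp background correction the changes were larger, at 0.49 and 0.31, and their adjusted p-values of 0.00515 and 0.0324 were above the cutoff.

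Des, desmin, is the muscle intermediate filament protein (chromosome 1, 75360292 to 75368579) and was the one member lower at an adjusted p under 0.05. Its probe read 7.26, 7.39 and 7.22 in the controls and 6.94, 6.86 and 6.93 in the moR-21 samples. Every moR-21 sample lay below every control. The change was −0.38 (95% CI −0.49 to −0.26, SE 0.053, limma adjusted p = 8.60e-05), a 1.2996-fold decrease that stops just short of the cutoff of 1.3. It was called lower with normexp background correction, at −0.97 or 1.96-fold (adjusted p = 3.63e-04), with array B alone of the repeated samples (−0.39), and when control sample 1, control sample 3, moR-21 sample 1 or moR-21 sample 3 was left out (−0.39 to −0.41). Des was detected on all 8 arrays, at an intensity of 146 to 166 on the control arrays and 115 to 125 on the moR-21 arrays, where the array medians lay between 102 and 109.

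**Figure D3:**
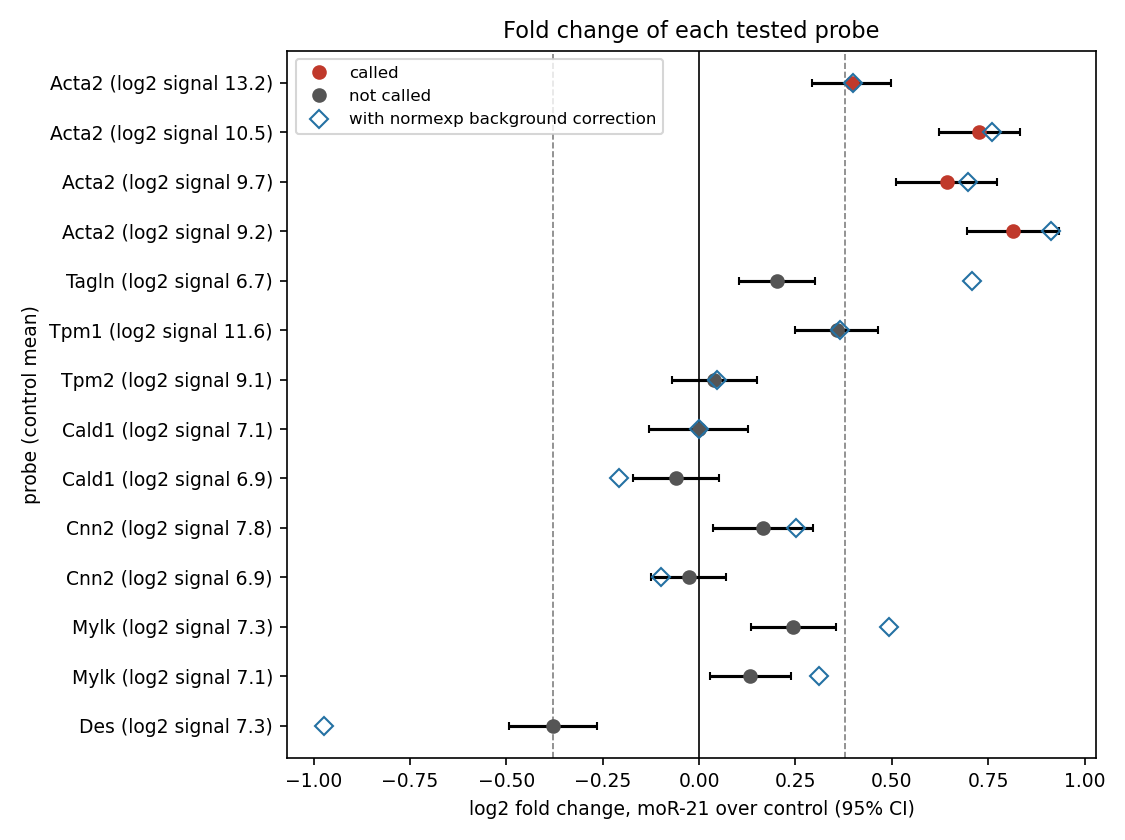
Log2 fold change of each of the 14 tested probes, moR-21 over control (circles, red where called, with the 95% CI), labelled with the gene and the control mean of the probe. Blue diamonds give the change after normexp background correction and dashed lines mark the fold cutoff of 1.3 in either direction. The 4 Acta2 probes lie past the right line, Des lies at the left line, and the diamonds move away from the circles most for Des (−0.97) and for Tagln, whose controls were not detected.

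Set against the brightest Acta2 probe, 5 of the 6 other genes detected in both groups changed less at an adjusted p under 0.05, all but Tpm1. Of all other tested probes, 92.2% did so too, so this count says little about these genes. The differences were −0.77 for Des, −0.40 for Cald1, −0.36 for Tpm2, −0.23 for Cnn2 and −0.15 for Mylk (limma adjusted p = 1.23e-17, 3.47e-07, 1.14e-06, 1.22e-03 and 0.0276). All of these differences share the noise of the Acta2 probe, so their p-values are likely too small. With normexp background correction Tpm2, Cald1 and Des still changed less, Cnn2 (−0.15) did not pass, and the difference of Mylk turned to 0.09, so that the order of Mylk and Acta2 depended on the background setting. At the brightest probe of each gene, the median log2 change of the 8 genes was 0.18 (0.16 without Tagln), beside 0.0056 over all 8727 genes. At an adjusted p under 0.05, 5 of the 8 genes were higher, or 4 of 7 without Tagln, and 1 lower (all genes 18.8% and 17.3%), and 1 was called higher and 0 lower (all genes 3.41% and 4.38%).

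The genes whose pattern over the 6 samples was most like that of the brightest Acta2 probe were 2610039C10Rik (now Mis18a), 1810008A18Rik (now Fam207a), Ada, Epb4.9 (now Dmtn) and Tsen34. The measure is the root mean square difference of the mean-centred log2 values, and it lay between 0.0261 and 0.0322 for these 5. Tpm1 came next among the contractile genes, at rank 26 of 8727 (0.0441), followed by Mylk at 450 and Tagln at 740. Des was at rank 8329. With 3 samples on each side, genes with a step of the same size share this pattern.

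The wider contractile apparatus, transcription factors and genes tied to the synthetic state were read from lists of 81 further genes, 73 of them on the array and 52 detected. At the brightest probe of each, there were 3 calls higher and 2 lower, beside 3.41% and 4.38% of all genes. The calls higher were Myl12b, Vim and Mgp, and the calls lower Klf4 and Ly6a. Klf4 is from the list of transcription factors, and Mgp and Ly6a are from that of the synthetic state. No gene of the contractile apparatus lists was called lower at its brightest probe. At an adjusted p under 0.05, 17 genes were higher and 8 lower, beside 18.8% and 17.3% of all genes, with a median change of 0.08. In the myosin list all 5 detected genes were higher at an adjusted p under 0.05, of 6 on the array, against 18.8% of all genes. Myl12b, a regulatory light chain listed under its older symbol Mylc2b, rose by 0.52 and was called, from 10.66, 10.58 and 10.66 in the controls to 11.00, 11.21 and 11.24 (limma adjusted p = 1.76e-05). Its dimmer probes were called too, at 0.41 and 0.45. Myh9 and Myh10, the heavy chains of non-muscle myosin, had changes of 0.31 and 0.29, Myl6 of 0.30 and Myl12a of 0.22, all below the fold cutoff. Myl12a and Myl12b are close paralogs, and probes may not keep them apart. Myh11, the smooth muscle heavy chain, was not detected.

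Among the other actins, Actb was the one detected and had a change of −0.04 at its brightest probe (limma adjusted p = 0.550), which turned to 0.03 under median scaling and 0.01 under cyclic loess. The 2 dimmest Actb probes were called lower, at −0.43 and −0.44. Actg2, Acta1 and Actc1, the remaining muscle actins, were not detected. Of the 6 detected genes of the thin filament list, 1 passed an adjusted p of 0.05, the tropomyosin gene Tpm4 (0.26), and the lowest value was −0.05 for Tpm3. In the list of kinases, phosphatases and calmodulins that set myosin phosphorylation, 1 of 7 was higher and 3 were lower at that threshold (all genes 18.8% and 17.3%), from 0.26 for Ppp1cb, a myosin phosphatase subunit, to −0.32 for Prkg1, the cGMP-dependent kinase of relaxation. Dense body and adhesion genes, 17 detected, held 6 higher and 2 lower beside the same shares, from Csrp1 (0.33), a LIM protein of smooth muscle, to Palld (−0.28), an actin cross-linking protein. None of these 4 lists had a gene called at its brightest probe.

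Of the other intermediate filament genes, Vim (vimentin, the filament protein of mesenchymal cells) rose by 0.43, from 11.88, 11.96 and 11.96 in the controls to 12.43, 12.35 and 12.31, and was called (limma adjusted p = 1.41e-05), though with normexp background correction its adjusted p of 0.00228 missed the cutoff. Plec had a change of 0.15 and Synm, a desmin partner, of 0.00. Vim and Des thus went in opposite directions, with no overlap between groups at either. In the list of transcription factors, 7 were detected and Klf4, a zinc finger factor known to repress contractile genes in cultured smooth muscle, was called lower. It fell by 0.52, from 7.60, 7.56 and 7.67 to 7.09, 7.12 and 7.05 (limma adjusted p = 1.83e-06). The other 2 Klf4 probes had changes of −0.43, called, and −0.21, not called. Prrx1 had the highest change of that list (0.28), Srf had 0.14 (limma adjusted p = 0.0617), and Myocd was not detected.

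Genes tied to the synthetic state moved both ways. Mgp, matrix Gla protein, an inhibitor of calcification, rose by 0.77, from 12.46, 12.38 and 12.42 to 13.12, 13.36 and 13.10, and was called (limma adjusted p = 6.42e-07). Ly6a, the surface antigen Sca1, fell by 1.24, from 10.12, 10.41 and 10.06 to 9.10, 8.94 and 8.84, and was called (limma adjusted p = 9.35e-08). At both genes the groups were far apart. The remaining 4 detected genes of this list lay between −0.16 and 0.19.

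**Figure D4:**
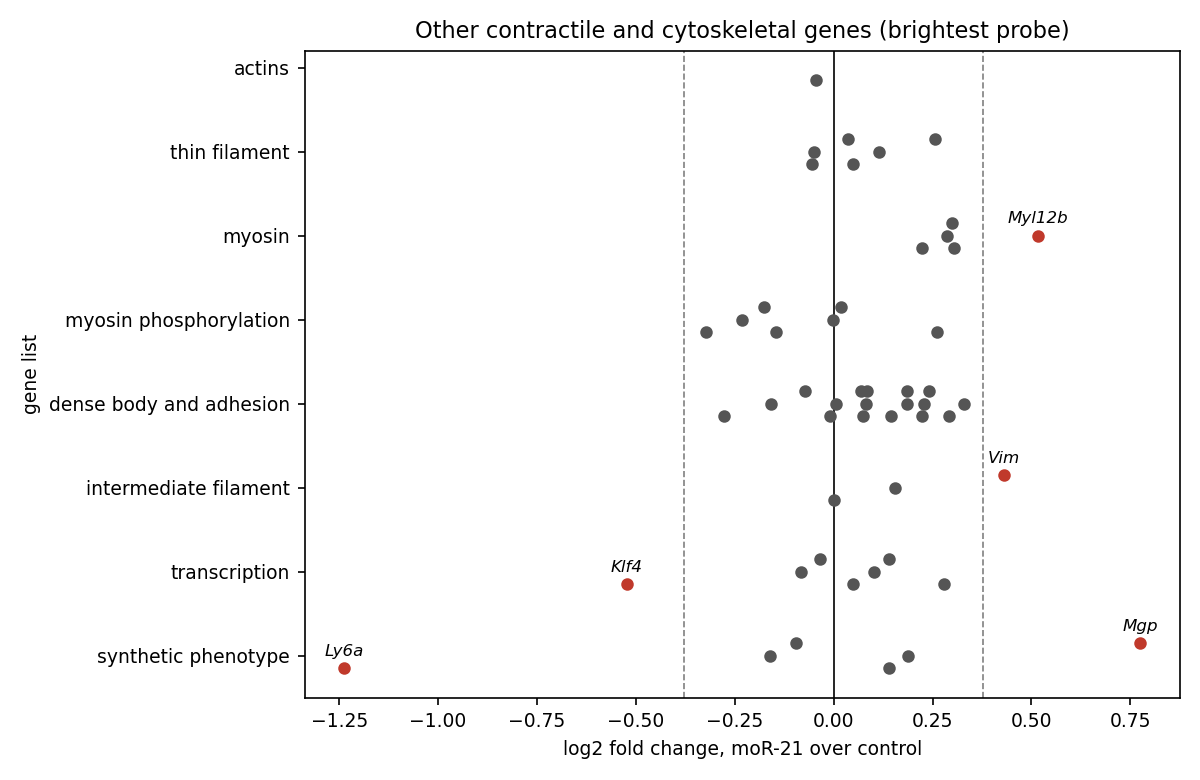
Log2 fold change, moR-21 over control, at the brightest probe of each of 52 further detected genes, grouped by list. Red points are called genes with their symbols, grey points are not called, dashed lines mark the fold cutoff of 1.3, and the vertical offset within a list only separates points. The myosin genes all lie to the right of 0, Klf4 (−0.52) and Ly6a (−1.24) lie past the left line, and Mgp (0.77) lies farthest right.

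The depth of the arrays was even. The median intensity lay between 102 and 109 and the number of detected probes between 10285 and 10512. Txndc5, a protein disulfide isomerase, went from a mean of 10.70 in the controls to 8.68 in the moR-21 samples (limma adjusted p = 1.70e-11). The study had picked it out on these same arrays as strongly lowered by moR-21. Its fall was therefore known beforehand and is no independent check that the mimetic acted. The repeat arrays of a sample differed by a median of 0.0573 and 0.0641 on the log2 scale, and different samples of a group by 0.0572 to 0.0701, so the spread behind the tests is of the size of the array-to-array spread. The number of samples limits the precision of every comparison, and 3 against 3 samples allow an exact two-sided permutation p of no less than 0.1 for any single probe.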

How the data were processed

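The authors deposited, for 8 Illumina mouse BeadChips, a non-normalized intensity and a detection p-value per probe, with no background correction stated. The labels name lumi, and the methods name quantile normalisation and limma. Quantile normalisation of those intensities over all 8 arrays was followed by log2 and by averaging a sample's arrays. limma 3.58.1 (R 4.3.3; lmFit, eBayes) compared 3 control and 3 moR-21 samples over 11651 probes, kept where any of the arrays had a detection p-value under 0.01, with Benjamini-Hochberg adjustment. Calls used the study's cutoffs. A gene was read at its brightest tested probe. Named were all members, every called gene and the highest and lowest change of each list, Txndc5 and the 5 genes most like Acta2. The members and lists were chosen with earlier results of these data known. Gene symbols are those of the table. Both microarray designs named in the methods (MouseWG-6 and MouseRef-8) could apply, and no slide was given in the sources used here. A dim group's bound used, per array, the higher of the lowest detected signal and the probe's own. The script was tested on simulated data. Promoter (250 bases before to 50 after a start) and microRNA sequences and gene positions are RefSeq's (GRCm38.p6). Figures were drawn with Python 3.11.15 and matplotlib 3.10.9. Alternatives were normexp, median scaling, cyclic loess, other detection filters, array A or B alone, all arrays singly, trend and robust eBayes, a replicate block, each sample left out, other cutoffs, the mean over probes and other reference probes.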

Additional observations from a re-analysis of the deposited data

How the results depend on the processing

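The count of member probes called higher was between 3 and 5 under every alternative at the same cutoffs and that of probes called lower between 0 and 1. With normexp background correction 4 were called higher, but Tagln, undetected in the controls, replaced the brightest Acta2 probe (0.399, adjusted p = 0.00318), and 1 was called lower, Des, as with array B alone (1). Leaving out each sample gave 3 to 5 higher and 0 to 1 lower, with the brightest Acta2 change between 0.363 and 0.416 and under the cutoff without moR-21 sample 3. Of the further listed genes 2 to 3 were then called lower, among them Klf4 and Ly6a, which are not contractile genes. The median change over the 8 genes was 0.308 with normexp and 0.122 with array A alone, against 0.183. With Tagln counted, 3 genes with normexp, not 6, changed less than Acta2, and the differences of Tagln and Mylk turned to 0.309 and 0.0948. Without a fold cutoff, at an adjusted p under 0.05, the members had 9 higher and 1 lower and the further genes 17 and 8, and at a fold over 1.5 the further genes had 1 and 1. Signs turned for the Cald1 probe ILMN_2804261 (0.000542 with normexp, 0.0162 with array A alone, −0.0578 to 0.0506 with a sample left out) and for Tpm2 (−0.000246 with array A alone), both near 0. Among the further genes they turned for Actb (0.035 with median scaling, 0.0105 with cyclic loess), for Synm (0.0333 with array B alone, 0.0194 and 0.0248 with all arrays singly, −0.0491 to 0.0426 with a sample left out) and for Tpm3 (−0.118 to 0.00239 with a sample left out). With normexp Fhl2 (0.50) took the place of Vim among the 3 further genes called higher. The cause of these shifts was not tested. With detection required on all 8 arrays Tagln and the dimmer Cald1 and Cnn2 probes had no value.

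Samples share a number across groups, and the labels do not say whether same-numbered samples belong together. The deviations of same-numbered samples correlated at 0.187, 0.044 and 0.060. These values cannot decide it, because differently numbered samples were not compared. With the replicate block the members had 4 calls higher and 0 lower, the further genes 3 and 2, the median was 0.183 and 6 genes changed less than Acta2. Low signal limits the values for Tagln, Cald1, Des, both Mylk probes and the dimmer Cnn2 probe.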

Other observations

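Actb, beta actin, had 5 detected probes that did not give the same value. The 3 brighter ones had control means of 12.94, 12.70 and 10.99 and changes of −0.04, −0.11 and −0.06, none of which passed an adjusted p of 0.05 in limma. The 2 dimmer ones, with control means of 8.76 and 8.65, had changes of −0.43 and −0.44 and were called lower. Among the actin genes the size of the change thus differed between probes for Actb as it did for Acta2.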
